A study of Mus musculus with 16 samples.

Results

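Integrins are transmembrane adhesion receptors built from an alpha and a beta subunit, and laminins are secreted proteins built from an alpha, a beta and a gamma chain. The probe sets described here are those whose only gene symbol in the platform annotation starts with Itga or Itgb, or with Lama, Lamb or Lamc followed by a number. This naming rule uses no measured value. They were 48 of the 12422 probe sets tested and measured 29 of 8251 genes. Of these genes, 19 encode integrin subunits (31 probe sets) and 9 encode laminin chains (14 probe sets). The remaining gene, Itgb1bp1 (3 probe sets), encodes no subunit but a cytoplasmic protein that binds the tail of the beta subunit Itgb1 and restrains its activation. RefSeq lists 42 protein-coding mouse genes under the same naming rule, of which 13 were not analysed here.

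The samples were whole inner ears of newborn (P0) COUP-TFI-/- and wild-type mice of the strain 129SvEv, with no treatment named in the labels. COUP-TFI is the orphan nuclear receptor encoded by Nr2f1, and the study set out to find genes that it regulates. Total RNA was pooled from several tissue samples, whose number is not given in the sources used here, and hybridized to 8 Affymetrix MG-U74Av2 chips in 2 sets, A and B, run at different times. Each set held 1 pool of each genotype on 2 duplicate chips, called A1, A2, B1 and B2 below. Each genotype thus had 4 chips but only 2 pools. All values below are those of the deposited files in 2 normalizations, GCRMA (log2 values) and dChip (linear intensities, log2-transformed for the tests).

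Laminins polymerize into basement membranes, the thin sheets of matrix beneath epithelia and around muscle fibres, Schwann cells and blood vessels, and integrins anchor cells to these sheets and pass signals inward. In the inner ear such membranes lie under the sensory and non-sensory epithelium of the cochlear duct and around the capillaries of the stria vascularis. The alpha subunit largely sets what an integrin binds. Itga3, Itga6 and Itga7 bind laminins, Itga2 binds collagens, Itga5, Itga8 and Itgav bind matrix proteins such as fibronectin and vitronectin, and Itgal, Itgam and Itgax are carried by leukocytes. Mice that lack Itga8 have malformed hair bundles in the vestibular utricle.

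The targeted gene separated the genotypes. The Nr2f1 probe set 102715_at read 4.68 to 5.27 on the COUP-TFI-/- chips and 7.74 to 8.83 on the wild-type chips in GCRMA log2 units, a difference of -3.37 (adjusted p = 5.9e-11 from limma on the pool means). The chips had GCRMA medians of 7.20 to 7.23 and dChip medians of 291 to 305. Of 16 listed markers of the inner ear epithelium 13 were measured, none with a mean GCRMA value under 5, and their summed linear GCRMA level in set A was 8623 to 8897 on COUP-TFI-/- chips and 9476 to 9814 on wild-type chips. In set B it was 6460 to 6670 on COUP-TFI-/- chips and 7197 to 7749 on wild-type chips. The sum was thus lower in COUP-TFI-/- without overlap within each set, in dChip as well. It weighs bright markers most, above all Oc90 (mean GCRMA value 11.91 in COUP-TFI-/- and 12.05 in wild-type). Of the 13 markers 4 read higher in COUP-TFI-/- in GCRMA, and 0 passed the adjusted p for the genotype. The part of these markers in the integrin and laminin values was not tested. Striated muscle transcripts did not follow the genotype labels evenly. The summed linear GCRMA level of 16 muscle markers was 16830 to 17370 on the COUP-TFI-/- A chips and 17780 to 18750 on the COUP-TFI-/- B chips, against 17130 to 17300 on the wild-type A chips and 9721 to 10290 on the wild-type B chips.

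No integrin or laminin probe set passed the test for a difference between COUP-TFI-/- and wild-type inner ears, and the estimates were small. With limma on the pool means and the set as a block, 0 of 48 passed a Benjamini-Hochberg adjusted p under 0.05 in GCRMA, where 0.105% of all probe sets passed, and 0 of 48 in dChip, where 0.00805% passed. At an unadjusted p under 0.05 the members also numbered 0 in both, beside 4.58% of all probe sets in GCRMA and 2.13% in dChip. The differences (COUP-TFI-/- minus wild-type) lay between -0.16 and 0.19 log2 units in GCRMA, with a median of 0.022 for the members and 0.00077 for all probe sets. The median absolute difference was 0.05 for the members and 0.06 for all. All 48 of the 95% intervals in GCRMA, and 44 of 48 in dChip, stayed within 0.5 log2 units on either side of 0. With 2 pools against 2, an exact permutation test of a single probe set that ignores the sets cannot go below a two-sided p of 0.333. A permutation kept within the sets has a higher floor still. The standard errors (SE) of limma draw largely on the variance of the other probe sets.

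**Figure D1:**
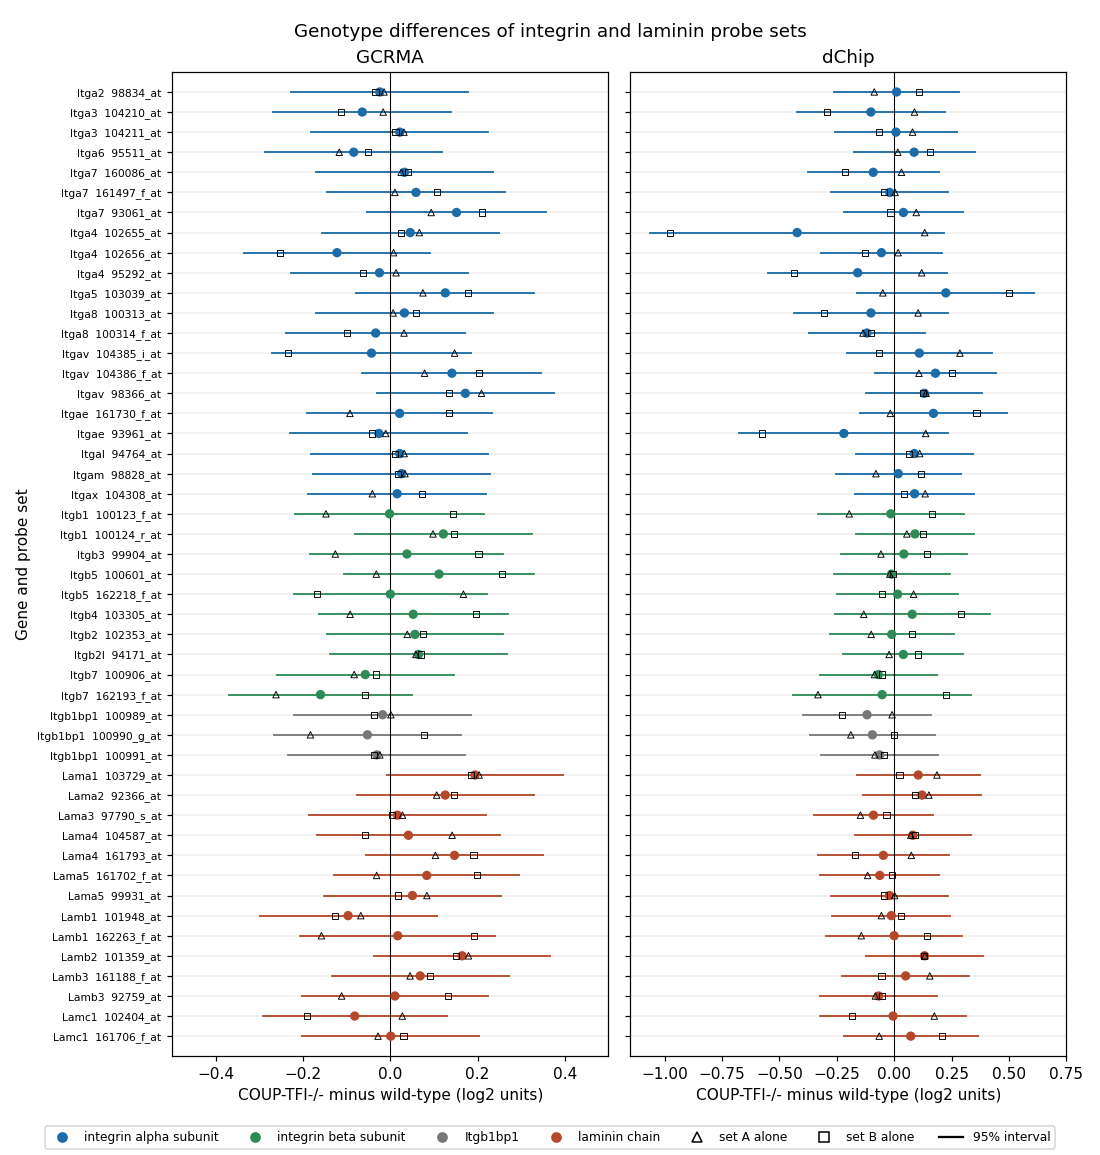
Genotype differences (x axis, COUP-TFI-/- minus wild-type, log2 units) of the 48 probe sets (y axis) in GCRMA and dChip. Filled circles are limma estimates from 2 pools per genotype with 95% intervals as lines, open triangles and squares are the differences within set A and set B, and every interval includes 0.

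The direction of these small differences depended on the normalization. In GCRMA, 32 of 48 probe sets read higher in COUP-TFI-/- ears, beside 50.3% of all probe sets, and in dChip 23 of 48 did, beside 46.3% of all. The laminin chains were 12 of 14 higher in GCRMA and 6 of 14 in dChip. The integrin alpha subunits were 13 of 21 higher in GCRMA and 12 of 21 in dChip, and the beta subunits 7 of 10 and 5 of 10. All 3 Itgb1bp1 probe sets read lower in COUP-TFI-/- ears in both normalizations, with GCRMA differences from -0.052 to -0.017. In both sets and both normalizations the sign was the same for 9 of 48, beside 21.8% of all probe sets. The 8 of these 9 with the largest GCRMA differences are described next, alpha and beta subunits first and laminins last, and the ninth was the leukocyte subunit Itgal.

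Itgav, the alpha subunit of the vitronectin receptors, has 3 probe sets, and 2 of them were among the 8. Probe set 98366_at read 6.37, 6.48, 6.30 and 6.39 on the COUP-TFI-/- chips A1, A2, B1 and B2, against 6.23, 6.19, 6.23 and 6.19 on the wild-type chips. All 4 COUP-TFI-/- chips lay above all 4 wild-type chips. The difference was 0.17 (SE 0.10, 95% interval -0.03 to 0.38, adjusted p = 1.00 from limma), and it was 0.21 within set A and 0.14 within set B. The dChip intensities of this probe set were 94.9, 106, 104 and 110.4 in COUP-TFI-/- and 90.3, 91.6, 98.8 and 97.8 in wild-type, a log2 difference of 0.13. Within each set both COUP-TFI-/- chips were again above both wild-type chips, while across the sets the ranges overlapped. Probe set 104386_f_at read 10.52, 10.21, 10.23 and 10.34 in COUP-TFI-/- and 10.14, 10.44, 10.04 and 10.13 in wild-type, a difference of 0.14 (SE 0.10), and its groups overlapped. The other Itgav probe set, 104385_i_at, had a GCRMA difference of -0.04.

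Itgb1, the beta subunit that pairs with most of the alpha subunits named here, was measured by 2 probe sets. Probe set 100124_r_at read 9.82, 9.88, 9.65 and 9.79 on the COUP-TFI-/- chips and 9.66, 9.84, 9.63 and 9.52 on the wild-type chips, with a difference of 0.12 (SE 0.10, 95% interval -0.08 to 0.32). Its groups overlapped in set A, and the other probe set, 100123_f_at, had a GCRMA difference of -0.0018. For Itgb7, a beta subunit of lymphocytes that guides them to the gut, 100906_at read 8.11, 8.31, 8.46 and 8.26 in COUP-TFI-/- ears and 8.30, 8.29, 8.37 and 8.42 in wild-type ears. The difference was -0.057 (SE 0.10), and the COUP-TFI-/- chips spanned the wild-type range. The Itgb1bp1 probe set 100991_at read 7.64, 7.56, 7.58 and 7.47 in COUP-TFI-/- and 7.60, 7.64, 7.58 and 7.55 in wild-type, a difference of -0.031 (SE 0.10) with overlapping chips.

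Among the laminins, Lama1, the alpha chain of early embryonic basement membranes, had the largest genotype difference of the members in GCRMA. Its values were 6.98, 6.98, 7.15 and 6.88 on the COUP-TFI-/- chips, against 6.77, 6.78, 6.85 and 6.81 on the wild-type chips, so the groups did not overlap. The difference was 0.19 (SE 0.10, 95% interval -0.0084 to 0.40, unadjusted p = 0.059 from limma, adjusted p = 1.00), of which set A alone gave 0.20 and set B 0.18. In dChip, Lama1 intensities were 289.7, 355, 343 and 357 in COUP-TFI-/- and 263, 301, 328 and 362 in wild-type, a log2 difference of 0.10 whose chips overlapped in both sets.

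Lamb2, the beta chain of the neuromuscular junction and of the kidney filter, read 7.71, 7.74, 7.77 and 7.80 in COUP-TFI-/- ears and 7.60, 7.49, 7.69 and 7.58 in wild-type ears. Every COUP-TFI-/- chip was above every wild-type chip, and the difference was 0.16 (SE 0.10, 95% interval -0.04 to 0.37). The dChip difference of Lamb2 was 0.13, and its chips overlapped in set A. Lama2, the laminin alpha chain of muscle fibres and Schwann cells, read 8.59, 8.51, 7.96 and 8.04 in COUP-TFI-/- and 8.45, 8.44, 7.85 and 7.87 in wild-type. Both COUP-TFI-/- chips were above both wild-type chips within each set, and the gap between the sets was larger than the gap between the genotypes. The Lama2 genotype difference was 0.13 (SE 0.10, 95% interval -0.08 to 0.33).

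**Figure D2:**
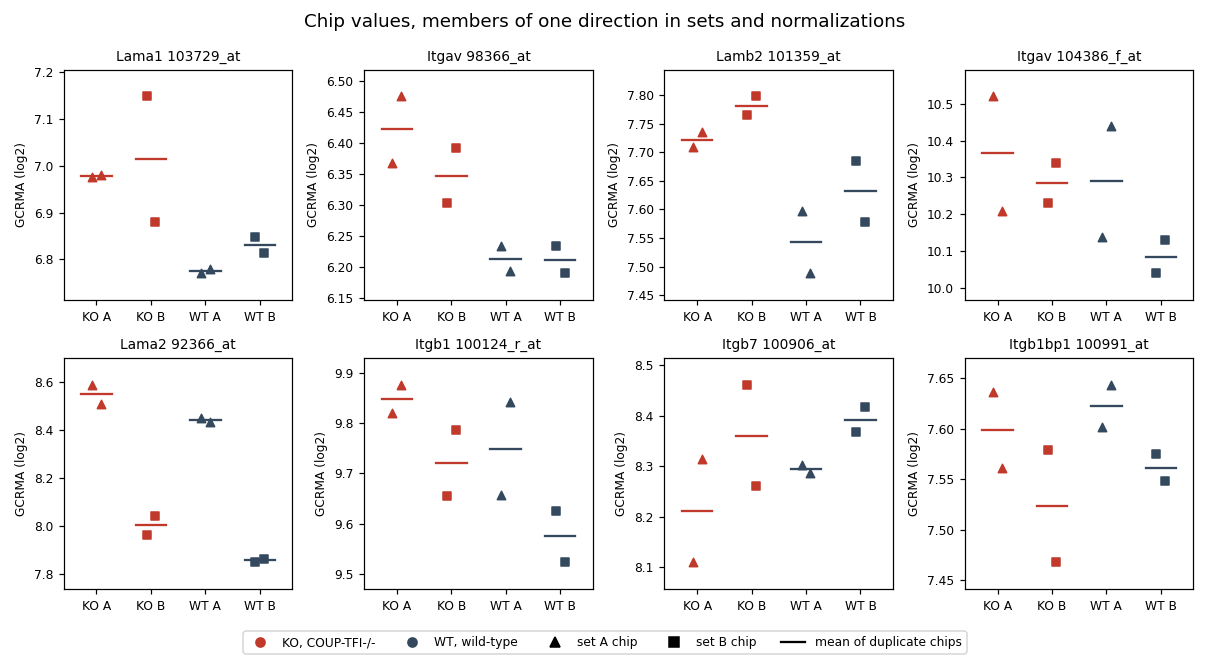
GCRMA values (y axis, log2 units) of the 8 probe sets whose sign held throughout and whose differences were largest, for COUP-TFI-/- (KO) and wild-type (WT) pools of sets A and B on the x axis. Points are chips and lines are means of duplicate chips. The chips of Lama1, Lamb2 and the Itgav probe set 98366_at do not overlap between genotypes, whereas those of Itgb7 and Itgb1bp1 do.

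A count of chips that do not overlap within a set gives the same picture without a test. In both sets of GCRMA, both COUP-TFI-/- chips lay above both wild-type chips for 5 probe sets (Itgav 98366_at, Lama1, Lama2, Lamb2 and Itga7 93061_at) and below them for 0, a share of 10.4% beside 8.26% of all probe sets (4.60% for those above). In dChip 2 probe sets were apart in this way, Itgav 98366_at above and Itgb1bp1 100991_at below, or 4.17% beside 8.15% of all. Itgav 98366_at is thus the only member apart in both normalizations. Itga7, the main alpha subunit of skeletal muscle, read 8.19, 8.22, 8.32 and 8.22 in COUP-TFI-/- and 8.11, 8.12, 7.96 and 8.15 in wild-type with probe set 93061_at, a difference of 0.15 (SE 0.10) in GCRMA and 0.04 in dChip. The lowest of these values, 7.96, was on wild-type chip B1, from the pool with the low muscle marker sum. Its duplicate B2, with the same RNA, read 8.15, the highest of the wild-type chips. Averaged over the sets, all 16 measured muscle markers (17 listed) read higher in COUP-TFI-/- in GCRMA, with a median difference of 0.37. Of these, 2 passed the adjusted p in GCRMA and 0 in dChip. Within set A their GCRMA differences ran from -0.19 (Ckm) to 0.56 (Myh8), and within set B from 0.08 (Chrna1) to 1.41 (Myh8). The genotype difference changed between the sets past the adjusted p for 8 of the 16 in each normalization (limma on the 8 chips). No measured marker lay under an intensity of 1 on all chips in dChip. The paper took genes with an interaction of genotype and set off its list, since in theory they hold differences from contaminating tissue at dissection. It reports that striated-muscle gene classes were over-represented among them. Such contamination was not tested here. The part of muscle RNA in the Itga7 and Lama2 values was not tested either. In bulk RNA fewer cells of a type and less RNA per cell cannot be told apart.

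The remaining alpha subunits had GCRMA differences of similar size. Among the laminin-binding subunits, Itga3 had -0.06 and 0.022 in its probe sets, Itga6 had -0.08, and the other Itga7 probe sets had 0.03 and 0.06. The collagen-binding Itga2 had -0.024. Itga5, which forms the fibronectin receptor with Itgb1, had 0.13 in GCRMA and 0.22 in dChip. Itga8 had -0.03 and 0.03. The 3 probe sets of Itga4, a receptor subunit for Vcam1 and fibronectin on migrating cells, had GCRMA differences of -0.12, -0.025 and 0.05, and all had mean GCRMA values under 5, in the dim range of the chips. In dChip, Itga4 102655_at had the largest difference of any member, -0.42 (95% interval -1.06 to 0.22), made up of 0.13 within set A and -0.98 within set B. Its dChip intensities in set B were 17.98 and 26.3 in COUP-TFI-/- and 39.4 and 46.5 in wild-type.

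Subunits of blood cells had GCRMA differences from -0.16 to 0.06, and none passed the genotype test. The leukocyte alpha subunits Itgal, Itgam and Itgax had GCRMA differences of 0.022, 0.026 and 0.016. Itgae, which binds E-cadherin on epithelial cells, had -0.026 and 0.021 in GCRMA, and -0.22 and 0.17 in dChip. The shared leukocyte beta subunit Itgb2 had a GCRMA difference of 0.06. Itgb2l, a gene related to Itgb2, had 0.06, and the second Itgb7 probe set, 162193_f_at, had -0.16, the lowest GCRMA difference of the members. The macrophage and neutrophil markers, 16 of 16 measured, had a median difference of 0.16 in GCRMA and 0.06 in dChip, and 0 passed the adjusted p. Their summed linear GCRMA level was 4638 to 5302 on COUP-TFI-/- chips and 4105 to 4496 on wild-type chips. In dChip the sums overlapped, with 8193 to 8988 on COUP-TFI-/- chips and 7719 to 8451 on wild-type chips. The part of these markers in the leukocyte subunits was not tested. Itgb3, the beta subunit of platelets and osteoclasts, had 0.04, and Itgb4, the beta subunit of hemidesmosomes, had 0.05. Itgb5, another partner of Itgav, had 0.11 in probe set 100601_at and 0.00020 in 162218_f_at.

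Of the other laminin chains, Lama3, the alpha chain of epithelial anchoring filaments, had a GCRMA difference of 0.016. Lama4, the chain of vessel walls, had 0.04 and, in its dim probe set 161793_at, 0.15. Lama5, the most widespread alpha chain of mature basement membranes, had 0.05 and 0.08. Lamb1 had -0.10 and 0.017, Lamb3, the beta partner of Lama3, had 0.011 and 0.07, and Lamc1, the gamma chain of most laminins, had -0.08 and 0.0011. Of the 15 genes with more than 1 probe set, 8 had probe sets with genotype differences of opposite sign. Of all 48 probe sets, 11 carry the suffix _f_at, which marks probes that can match several related sequences, so their values may include other transcripts.

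The methods' 2-way analysis of variance counts every chip as a replicate, and its p-values then measure only the spread between hybridizations of the same RNA. In a limma fit of that design, 6 of 48 probe sets had an unadjusted genotype p under 0.05 in GCRMA, beside 13.0% of all, and 4 in dChip, beside 14.8%. The study's rule for its hit list asks for an interaction p over 0.01 in both normalizations and a genotype p whose lower value is under 0.01 and whose higher value is under 0.05, and 0 of 48 members met it, beside 2.42% of all probe sets. Without COUP-TFI-/- replicate B1 the count became 1, Itgav 98366_at.

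No measured gene of 2 related lists passed the adjusted p for the genotype. Of 23 listed basement membrane and matrix ligands 19 were measured, and 0 passed the adjusted p in either normalization, while 2 higher and 1 lower had an unadjusted p under 0.05 in GCRMA. The median GCRMA difference was 0.07 for these ligands. Vcam1, the endothelial ligand of Itga4, had 0.40 (SE 0.10, adjusted p = 0.348 from limma) in GCRMA but 0.07 in dChip. Npnt, the ligand of Itga8, had 0.22 in GCRMA and 0.17 in dChip, the dystrophin-complex protein Sgca 0.22 and 0.17, and the laminin-binding nidogen Nid2 -0.22 and -0.25. Of 36 genes of integrin adhesion and signalling, a list that includes Itgb1bp1, 29 had a probe set annotated to that symbol alone. Of these 0 passed in either normalization, with a median of 0.020 and 2 higher at an unadjusted p under 0.05 in GCRMA. Nedd9 is on the list but had no such probe set, although the paper ranks a Nedd9 probe set among its candidate targets. Fermt3, the kindlin of blood cells that switches integrins on, had 0.25 in GCRMA and 0.15 in dChip, and the focal adhesion protein Tns2 had 0.24 and 0.17. Fermt3 and Tns2 both met the hit list rule on the 8 chips. The actin crosslinker Actn4 had -0.20 in GCRMA and -0.04 in dChip, and the integrin-associated tetraspanin Cd9 had -0.17 and -0.024.

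COUP-TFI binds DNA at AGGTCA-like hexamers, usually as a repeat, so the promoters of the members were searched for them. RefSeq (GRCm38.p6) windows from 250 bases before to 50 after the gene start were at hand for 18 of the 29 genes (20 windows). On either strand, AGGTCA occurred in 1 window (5% of the members' windows, beside 16.3% of all 32851 windows) and GGGTCA in 3 (15%, beside 13.7%), and 4 of the 20 windows (20%) held either, beside 27.5% of all. The repeat AGGTCANAGGTCA occurred in 0 windows, beside 0.0396% of all. Of these 4 sites 3 are shown, to give the letters around the hexamer, with the hexamer in capitals and each sequence read 5′ to 3′ on the strand that carries it:
Itgb2l (chr16:96443664-96443693, minus strand, hexamer centred at -64 from the start): gcaaccagccacAGGTCActccacttcctc
Itgb5 (chr16:33829527-33829556, plus strand, at -123): atccccacaagtGGGTCAgctgtgacagcc
Itgb7 (chr15:102232064-102232093, plus strand, at -143): aagtacaaggaaGGGTCAccagaacagcgc
A match is a description of letters only. None of these 3 genes had a probe set that passed the genotype test, and their GCRMA differences were 0.06 for Itgb2l, 0.11 and 0.00020 for Itgb5, and -0.057 and -0.16 for Itgb7.

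The members differed more between the hybridization sets than between the genotypes. In the same limma fit, the difference of set A minus set B passed the adjusted p for 13 of 48 probe sets in GCRMA, a share of 27.1% that is close to the 25.8% of all probe sets. In set A 7 of them were higher, beside 13.6% of all, and 6 were lower, beside 12.2%. In dChip 5 of 48 passed, beside 11.7% of all. Each of the 5 was higher in set A, beside 6.76% of all, and 3 passed in both with the same sign, beside 8.43% of all. The sign of the set difference was the same in GCRMA and dChip for 38 of 48, beside 77.7% of all. Of the 14 laminin probe sets 8 passed in GCRMA and 3 in dChip, and 3 of the 8 (Lama3, Lama4 and Lamb1 162263_f_at) were lost without COUP-TFI-/- replicate A1, wild-type replicate A2 or wild-type replicate B1. Since each set held 1 pool per genotype, the time of hybridization and the pools of animals cannot be told apart here.

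Lamb1, Lama2, Lamc1 and Lama4 were the laminin chains with a probe set higher in set A in GCRMA. Lamb1, a beta chain of many basement membranes, had the largest GCRMA set difference of the members. Its probe set 101948_at read 7.44, 7.38, 7.59 and 7.37 on the set A chips (COUP-TFI-/- A1 and A2, wild-type A1 and A2), against 6.46, 6.71, 6.78 and 6.65 on the set B chips. The sets did not overlap, and the difference was 0.79 (SE 0.10, 95% interval 0.59 to 1.00, adjusted p = 2.7e-05 from limma), with 0.82 in COUP-TFI-/- and 0.76 in wild-type. In dChip this probe set had 0.42 and missed the threshold (adjusted p = 0.0573 from limma). Lama2, whose chips are given above, averaged 8.50 in set A and 7.93 in set B, a difference of 0.56 (SE 0.10, adjusted p = 5.3e-04 from limma) and of 0.51 in dChip (adjusted p = 0.0368 from limma). The set differences of the remaining laminin calls were 0.36 for Lamc1 161706_f_at (adjusted p = 0.0119 from limma), 0.33 for Lamb1 162263_f_at and 0.29 for Lama4 104587_at. The other Lamc1 probe set, 102404_at, went the other way with -0.18 in GCRMA and did not pass. The other Lama4 probe set, 161793_at, had 0.11 and did not pass either.

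Itga6 and Itgb1, which pair as a laminin receptor, were also higher in set A. Itga6, the laminin receptor subunit of epithelia, read 7.32, 7.24, 7.35 and 7.44 on the set A chips and 6.47, 6.90, 6.84 and 6.62 on the set B chips. No chip of set A overlapped with set B, and the difference was 0.63 (SE 0.10, adjusted p = 2.2e-04 from limma), against 0.45 in dChip, where it missed the threshold (adjusted p = 0.0529 from limma). Itgb1 100123_f_at read 12.39, 12.33, 12.64 and 12.39 in set A, against 11.92, 12.14, 12.02 and 11.74 in set B, a difference of 0.48 (SE 0.10, adjusted p = 0.00282 from limma). In dChip this probe set had 0.17 and did not pass, and its COUP-TFI-/- chips overlapped between the sets. The other Itgb1 probe set, 100124_r_at, had 0.15 in GCRMA and did not pass.

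Lamb3, Lama3 and Lama5 were the laminin chains with a probe set lower in set A in GCRMA. Lamb3 92759_at read 6.60, 6.85, 6.85 and 6.82 on the set A chips, against 7.47, 7.44, 7.28 and 7.36 on the set B chips, a difference of -0.60 (SE 0.10, adjusted p = 4.6e-04 from limma) with no overlap, and in dChip it had -0.35 and did not pass (adjusted p = 0.0813 from limma). The other Lamb3 probe set, 161188_f_at, had -0.20 in GCRMA and did not pass. Lama3, the alpha partner of Lamb3, had -0.30 (adjusted p = 0.0317 from limma). Lama5 161702_f_at read 6.71, 6.47, 6.70 and 6.55 in set A, against 7.29, 7.13, 6.92 and 7.10 in set B, a difference of -0.50 (SE 0.10, adjusted p = 0.00185 from limma). This direction did not hold in dChip, where the set difference came to 0.16 (adjusted p = 0.332 from limma). The other Lama5 probe set, 99931_at, had 0.03 in GCRMA. Of the 15 genes with more than 1 probe set, 8 had set differences of opposite sign.

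Itga5 of the fibronectin receptor and 1 of 2 probe sets of Itgb5, a partner of Itgav, were lower in set A in GCRMA too. Itga5 read 6.48, 6.42, 6.33 and 6.43 in set A, against 7.10, 6.91, 6.96 and 6.70 in set B, without overlap, and the set difference was -0.51 (SE 0.10, adjusted p = 0.00131 from limma). Itgb5 100601_at read 9.61, 9.60, 9.65 and 9.63 in set A, against 10.04, 10.11, 9.84 and 9.80 in set B, with a difference of -0.32 (SE 0.10, adjusted p = 0.0284 from limma). Its set A chips were closely spaced, and its set B chips were higher in COUP-TFI-/- than in wild-type. The other Itgb5 probe set, 162218_f_at, went the other way, with 0.14 in GCRMA and 0.44 in dChip, and did not pass. In dChip neither Itga5 (-0.35, adjusted p = 0.179 from limma) nor Itgb5 100601_at (-0.16, adjusted p = 0.328 from limma) passed. The last call was Itgae 161730_f_at (-0.29), a dim probe set. In all, 18 of 48 probe sets had no overlap between the chips of sets A and B in GCRMA, or 37.5% beside 37.1% of all, and 20 of 48 had none in dChip, or 41.7% beside 40.5%.

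**Figure D3:**
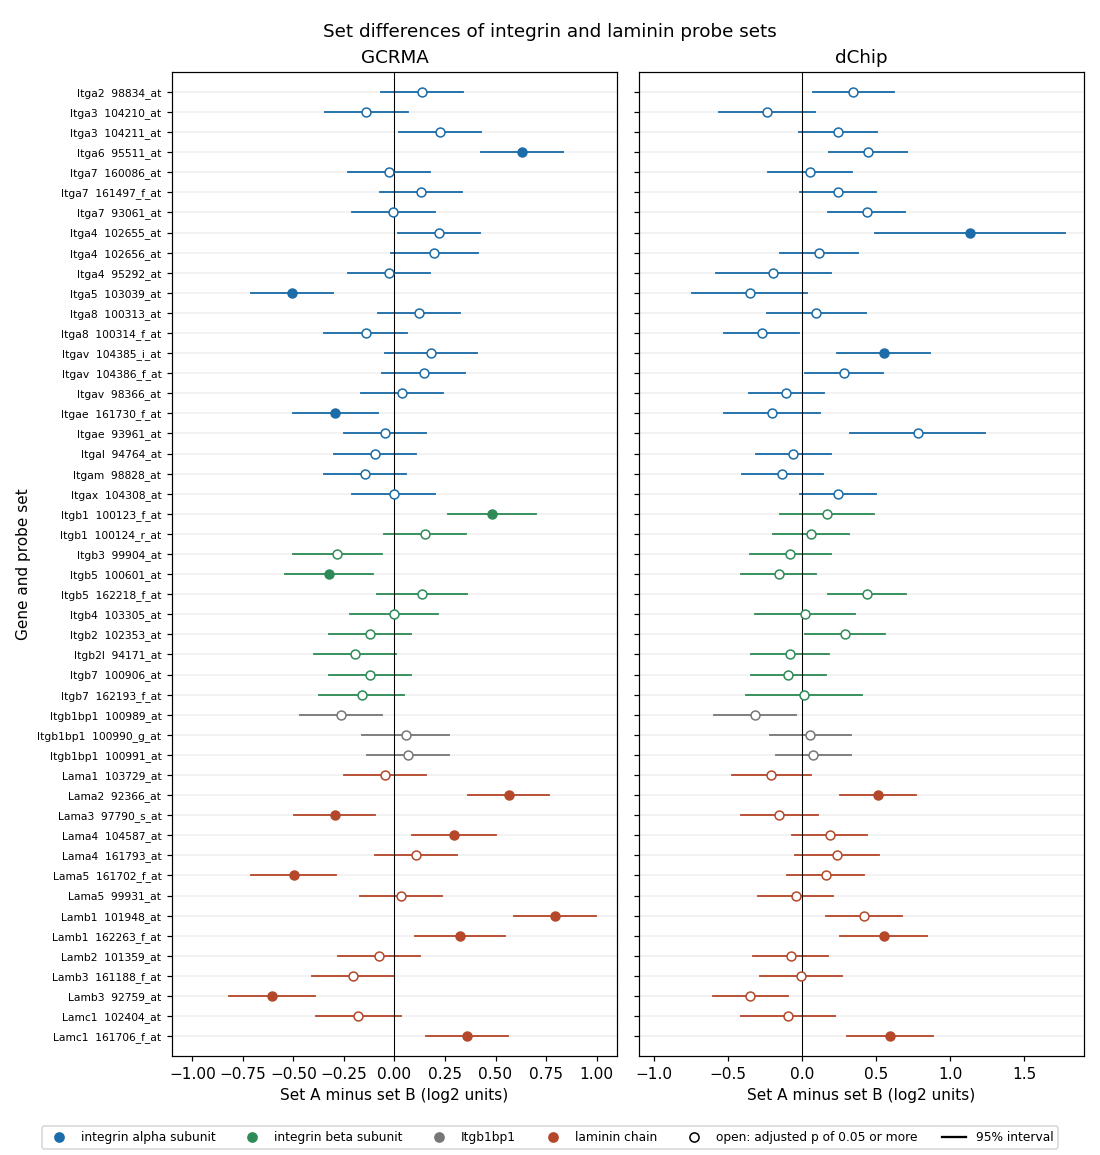
Set differences (x axis, set A minus set B, log2 units) of the 48 probe sets (y axis) in GCRMA and dChip, with 95% intervals as lines. Filled circles passed an adjusted p under 0.05 (13 in GCRMA and 5 in dChip), open circles did not, and Lama5 161702_f_at lies on opposite sides of 0 in the 2 panels.

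Single chips decided part of these calls. In GCRMA the count of 13 became 8 without COUP-TFI-/- replicate A1, wild-type replicate A2 or wild-type replicate B1, where the share over all probe sets was also lower (16.5%, 19.8% and 18.1%). The calls of Lamb1 101948_at, Itga6, Lama2, Itgb1 100123_f_at, Lamc1 161706_f_at, Lamb3 92759_at, Itga5 and Lama5 161702_f_at were kept whichever chip was left out. Those of Itgb5, Lama3, Lama4, Itgae and Lamb1 162263_f_at were each lost without 3 or more of the chips. In dChip the 5 calls were Lama2, Lamc1 161706_f_at, Lamb1 162263_f_at, Itgav 104385_i_at and Itga4 102655_at, the last with a set difference of 1.14. The dChip count was 0 without COUP-TFI-/- replicate A1, COUP-TFI-/- replicate B2 or wild-type replicate B1, where 6.42%, 4.59% and 7.85% of all probe sets passed. It was 1 when wild-type replicate A1 was dropped (7.66% of all), and 9 to 11 without wild-type replicate A2, COUP-TFI-/- replicate A2 or wild-type replicate B2 (14.6% to 18.5% of all).

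**Figure D4:**
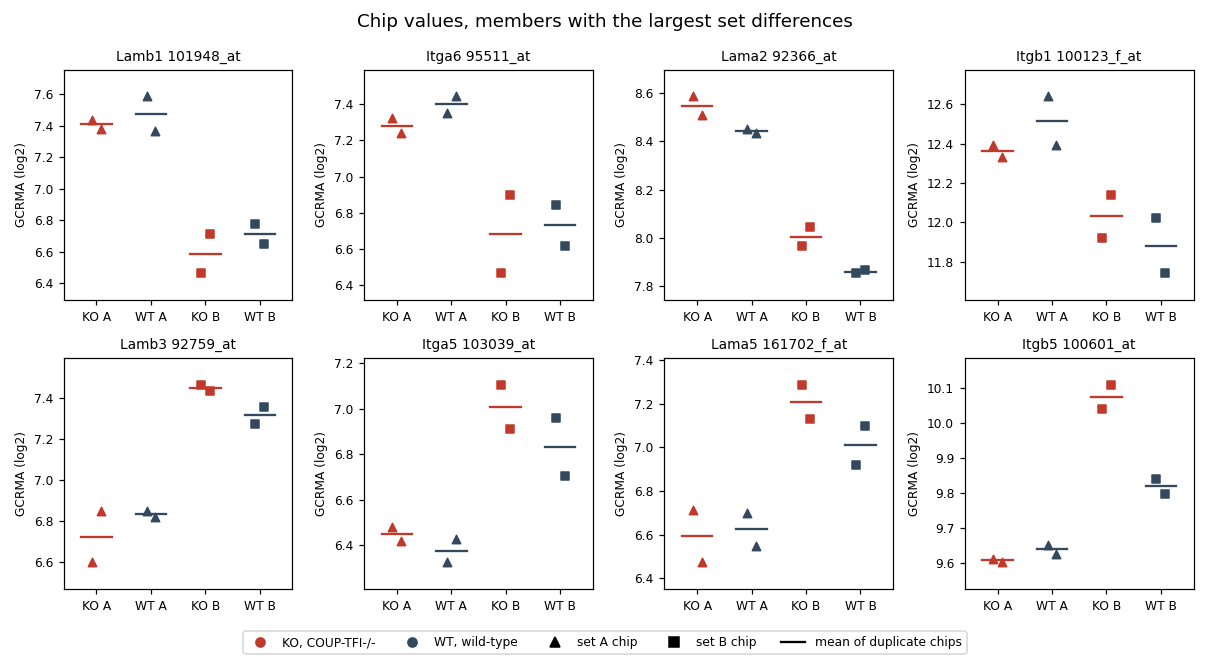
GCRMA values (y axis, log2 units) of the 4 members with the largest called set difference in each direction, for COUP-TFI-/- (KO) and wild-type (WT) pools of set A and then of set B on the x axis. Points are chips and lines are means of duplicate chips, and the set A chips lie above all set B chips for Lamb1, Itga6, Lama2 and Itgb1 and below them for Lamb3, Itga5, Lama5 and Itgb5.

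Some markers of other tissues differed between the sets as well. Over all probe sets, 13.6% passed as higher and 12.2% as lower in set A in GCRMA. Of 10 measured cartilage markers 8 passed the adjusted p as lower in set A in GCRMA, with a median over the list of -0.74, and the summed linear level of all 10 was 13630 to 15150 on set A chips and 23270 to 25250 on set B chips. Of the 13 inner ear epithelium markers 8 passed as higher and 1 as lower in set A, with a median over the list of 0.36. Of 8 endothelial markers 2 passed as higher in set A, and the sum of all 8 was 3028 to 3228 in set A and 2828 to 2952 in set B. Of 8 markers of stratified epithelium and skin 4 passed as lower in set A, and all 8 had sums of 980.1 to 1049 in set A and 1094 to 1180 in set B. In dChip, where 11.7% of all probe sets passed, 0 of these 8 did. There 8 cartilage markers passed as lower and 3 endothelial markers as higher in set A. Of the inner ear epithelium markers 5 passed as higher and 1 as lower in dChip. The part of these tissues in the integrin and laminin set differences was not tested. Among the 19 matrix ligands 5 passed as higher and 2 as lower in set A in GCRMA. Among the 29 adhesion and signalling genes 6 passed as higher and 5 as lower. Of 16 macrophage and neutrophil markers 1 passed as higher and 2 as lower in GCRMA, and of 5 platelet markers 0 passed. The 16 striated muscle markers gave 4 higher and 0 lower in GCRMA, and 0 higher and 1 lower in dChip. The 7 markers of Schwann cells and glia gave 2 higher and 1 lower in GCRMA, and 1 of each in dChip. For 10 lymphocyte markers the GCRMA counts were 0 higher and 3 lower, and in dChip 1 and 0. For 7 simple epithelium markers they were 1 and 2, and in dChip 0 and 0. Their part was not tested.

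No member had a genotype difference that changed between the sets past the adjusted p. In the limma fit of the 8 chips, the interaction of genotype and set passed for 0 of 48 in GCRMA, beside 0.958% of all probe sets, and for 0 of 48 in dChip, beside 0.459%. At an unadjusted p under 0.05 there were 5 in GCRMA, beside 16.4% of all, and 9 in dChip, beside 21.1%. The chips of the genotypes were apart in opposite directions in the 2 sets for 5 in GCRMA, beside 11.2% of all, and for 3 in dChip, beside 13.4%. The lowest adjusted p was that of Itga4 102655_at in dChip, 0.0755 from limma. Without COUP-TFI-/- replicate B2 this probe set passed in dChip (1.38 log2 units, adjusted p = 0.0333 from limma), and Itgav 104385_i_at passed in GCRMA (0.66, adjusted p = 0.0353 from limma). On the COUP-TFI-/- B1 chip, Itgav 104385_i_at read 6.31, against 6.86 on its duplicate B2.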

How the data were processed

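Whole inner ears of P0 COUP-TFI-/- and wild-type mice were profiled on 8 chips, 2 pools per genotype in duplicate. The authors corrected the background, normalized the chips and summarized the probes to give the deposited GCRMA log2 values, and the deposited dChip values are model-based intensities on a linear scale. Software versions are not given in the sources used here. All 16 value columns were used, 66 control probe sets were left out, and 89 dChip values below 1 were raised to 1 ahead of taking log2. The number of pools limits the precision.

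Duplicate chips were averaged and tested with limma 3.58.1 in R 4.3.3 on 4 pool means (genotype and set), two-sided, with Benjamini-Hochberg adjustment over 12422 (GCRMA) or 12421 (dChip) probe sets. The residual degrees of freedom were 1, to which the prior added 14.3 and 4.55. The interaction and the study's hit list rule were fitted on the 8 chips. By the methods, each set holds 1 pool per genotype, which pairs them: the A minus B differences of the genotypes correlated across probe sets (r = 0.752 in GCRMA, 0.688 in dChip). The letter of a chip was read as its set, since duplicate chips so defined correlated at 0.996 to 0.997. All 29 genes matched RefSeq by gene identifier. The sequence of 1 promoter site is not reported here. In the other gene lists a gene counts as measured if a probe set carries its symbol alone, and it stands as its brightest such probe set in GCRMA.

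Full values were given for the 8 members with the largest GCRMA difference among those of 1 direction in both sets and normalizations, and for the 4 largest set differences in each direction. Alternatives were no set term, chips as replicates, a random pool block, the methods' 2-way analysis of variance, quantile normalization, dim probe sets with a mean GCRMA value under 5 left out, an intensity trend, a dChip floor of 16 and each chip left out. The scripts were tested on simulated data. The naming rule of the members uses no measured value, but the rule and the lists were chosen with earlier results of these data known. The lists are therefore not independent of these data.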

Additional observations from a re-analysis of the deposited data

Results flagged for a closer look

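In 6 cases a probe set had 1 chip far from the other 3 of its genotype by Dixon's criterion, among 192 groups of 4 chips tested, where chance flags about 1 in 20. In GCRMA, Itgb2l read 7.14 on the COUP-TFI-/- B1 chip and 6.72 to 6.78 on the others, and Itgax read 7.24 on the wild-type A2 chip and 7.12 to 7.14 on the others. In dChip, Itgb1bp1 100991_at read 389 on the COUP-TFI-/- A1 chip, against 359.7 to 362 on the others. The wild-type chips with a distant dChip value were A1 for Itga5 (171, others 186 to 189), A2 for Itga8 100313_at (169, others 193 to 198) and A2 for Lamb3 161188_f_at (640.1, others 753 to 763).

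For 5 probe sets in GCRMA (10.4%, beside 11.2% of all) the COUP-TFI-/- chips lay on opposite sides of the wild-type chips in the 2 sets. Set A gave a difference of -0.18 and set B one of 0.08 for Itgb1bp1 100990_g_at, likewise -0.092 and 0.20 for Itgb4, and -0.032 and 0.26 for Itgb5 100601_at. The pair was 0.17 (set A) and -0.17 (set B) for Itgb5 162218_f_at, and 0.14 and -0.06 for Lama4 104587_at. In dChip 3 probe sets did so (6.25%, beside 13.4% of all). Itgam had -0.080 (set A) and 0.11 (set B), Itgb4 had -0.13 and 0.29, and Itgb7 162193_f_at had -0.33 and 0.23. None of them passed limma's adjusted p for the interaction, and Itgb4 was the only probe set in both normalizations, with interaction differences of -0.29 in GCRMA (adjusted p = 0.242 from limma) and -0.42 in dChip (adjusted p = 0.0964 from limma).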

How the results depend on the processing

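The genotype count of 0 members was kept in all alternatives run, in both normalizations. Without the set term (no replicate block) it was 0, and the pairing by set therefore decided no call. The 8 differences named for the genotype kept their sign in all 16 alternatives of each. This was largely fixed beforehand, since they were chosen for a sign shared by both sets and both normalizations. Several of the alternatives also return the same estimate by design. Over all 48 members, 11 changed sign in GCRMA without COUP-TFI-/- replicate B1. The named set differences were run in 12 alternatives each. Lama2 kept its call in all, and Itgb5 100601_at missed the threshold with quantile normalization (adjusted p = 0.0565 from limma), in dChip (0.328) and with 3 single chips left out. Lama5 161702_f_at reversed in dChip (0.16), and in dChip the set calls of Lamb1 101948_at (adjusted p = 0.0573 from limma), Itga6 (0.0529), Itgb1 (0.398), Lamb3 (0.0813) and Itga5 (0.179) were lost. The GCRMA set count of 13 was 18 with the chips as replicates (46.1% of all probe sets) and 9 with quantile normalization (21.2%), and ran from 8 to 14 with single chips left out. The dChip set count of 5 was 24 with the chips as replicates (50.5% of all), 11 with quantile normalization (19%), 10 without dim probe sets (22.7%) and 0 with a floor of 16, where 0 of all 12421 probe sets passed. With single chips left out it ran from 0 to 11. The interaction count ran from 0 to 1 in both normalizations, and the hit list count from 0 to 1. The number of members whose chips were apart in both sets in dChip was 1 with quantile normalization. The cause of these shifts was not tested.

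Limits are that each genotype has 2 pools, that duplicate chips share their RNA, that the SE borrows from the variance of other probe sets, and that dim probe sets and _f_at probe sets give uncertain levels. In all, 8 members had a mean GCRMA value under 5.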
